A study of Rattus norvegicus with 46 samples.

Results

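The passively loaded leg was compared with the unloaded leg of the same rat during the first hours and days of paralysis, in the 26 legs of 46 in the series whose labels give the window 6 h to 4 d (13 loaded and 13 unloaded legs). The rats were female Sprague-Dawley rats in an intensive-care model. They were anaesthetised with isoflurane, paralysed by synaptic block with α-cobrotoxin, and kept on mechanical ventilation. This snake toxin occupies the acetylcholine receptors of muscle where nerve endings meet it. In the loaded leg, the left one, a lever moved the ankle through 13.3 cycles per minute. Movement lasted 6 h where the study was shortest and 12 h per day otherwise. The unloaded leg was the opposite leg of these rats and had no such movement. Both legs thus shared anaesthesia, paralysis, ventilation and circulation. The exact duration of each rat was not used, so the window pools rats of different durations, and no untreated rat was measured, so no level here is a baseline. RNA from the proximal gastrocnemius, a calf muscle that crosses the ankle, was read on 1 single-colour array per leg. The values are log2 expression after robust multi-array averaging (RMA), and a difference of 1 between legs is a doubling.

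A muscle that is neither stimulated by its nerve nor bearing load loses force and myosin, and passive movement restores part of the mechanical signal without the electrical one. Fibres sense stretch and tension through the costamere, which ties the outer sarcomeres to the matrix, and through proteins of the Z-disc. The transcription factors YAP and TAZ, acting with TEAD proteins, carry part of that signal to matricellular genes such as Ccn2. Loss of the nerve signal is read through another route, in which myogenin (Myog) switches on acetylcholine receptor subunits and atrophy ligases.

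Of 9289 genes measured, 0 passed an adjusted p of 0.05 between the legs (limma with the rat as a block, percent called 0), and the lowest adjusted value was 0.110. Without adjustment, 1075 genes had p under 0.05, which is 11.6% of the genes. Of these, 471 (5.07%) were higher and 604 (6.5%) were lower in the loaded leg. No single gene below is therefore a call at that threshold, and the values are descriptions with their intervals. SEs and intervals use a spread estimated over all 46 arrays, later windows included. With the 26 arrays of 6 h to 4 d alone, the lowest adjusted p from limma was 0.236. Regardless of p, 4285 of all genes (46.1%) were higher and 5004 lower in the loaded leg. The difference had 1 sign in at least 12 of the 13 rats for 119 genes, which is 1.28% of those measured. Only 24 genes differed by at least 1.5-fold on average. The 4 higher ones were Rbm3, Ccn2, Nr4a1 and Car12. The 20 lower ones were led by genes of slow fibres, which varied between rats in both directions.

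Which legs came from 1 rat is not in the labels, so the pairs are inferred: each odd-numbered unloaded leg was paired with the loaded leg of the next number, and rats are numbered here after their unloaded legs. Both legs of each pair carry the same date code in the labels. Across genes, what 1 leg deviated from its group mean correlated with what the other did at r above 0.1 in 11 of 13 rats (median 0.52). Rat 17 was at r = 0.08 and rat 27 at r = -0.35. By a stricter measure, only 3 rats had legs that were each other's best match. In rats 17, 19, 21, 23 and 27 neither leg correlated best with its partner, so the inferred pairing is not shown for every rat. The loaded legs 22 and 28, of rats 21 and 27, were the closest of all 1035 pairs of arrays, with an SD over genes of 0.145 between them, against 0.184 for the closest 2 legs of 1 rat. On the first principal component of all arrays, both legs of rats 35 and 37 lay between the other legs of 6 h to 4 d and the legs of later windows. The genes that passed without rats 21 and 27 and are described here are given with and without them. Leaving out a rat that is the exception of a gene favours a smaller p, so such values add no support to the full fit. The labels number legs and name no animals, so p-values cover only the spread between these samples.

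**Figure D1:**
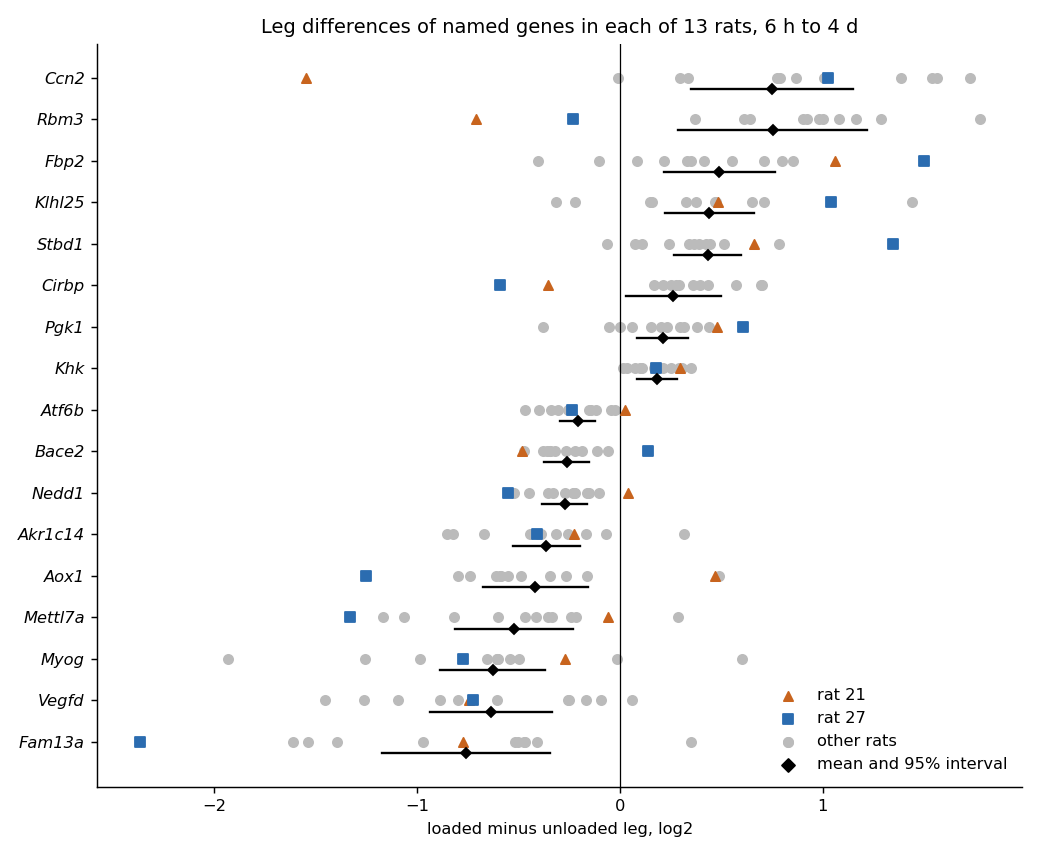
Loaded minus unloaded leg (log2, x axis) of 17 named genes in each of 13 rats, 6 h to 4 d. Points are rats, with rat 21 as a triangle and rat 27 as a square. The diamond and line under the points give the mean and its 95% interval. The points of Khk all lie above 0, and in Rbm3 and Cirbp the only points below 0 are rats 21 and 27.

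Of 25 measured genes of glycolysis and glycogen, 20 were higher in the loaded leg and 5 lower, none past the adjusted threshold. Stbd1, a protein that binds glycogen and tethers it to membranes for lysosomal breakdown, had the smallest unadjusted p of all higher genes. Its log2 level was 7.37 at the lowest, 8.25 at the median and 9.12 at the highest in loaded legs, against 7.14, 7.72 and 8.43 in unloaded legs. The groups overlapped, yet the loaded leg was the higher one in 12 of 13 rats, and the exception, rat 23, differed by -0.06. The mean leg difference of Stbd1 was 0.43 (SE 0.08, 95% interval 0.27 to 0.60), with an adjusted p of 0.110 from limma. Without rat 27, whose difference of 1.35 was the highest, the mean was 0.36 with an adjusted p of 0.0398 from limma. Without rats 21 and 27 it was 0.33 (adjusted p 0.0303). Stbd1 passed in 5 of 27 alternatives. Leaving out the rat with the highest difference narrows the spread, so these values add no support to the full fit. The mean of Stbd1 was 0.42 in the 4 rats of date code 3 and 0.48 in the 6 rats of date code 4.

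Fbp2, the muscle fructose-bisphosphatase that sends carbon back toward glycogen, had log2 levels of 6.58, 9.54 and 9.94 (lowest, median and highest) in loaded legs, against 6.03, 8.50 and 9.72 in unloaded legs. The ranges overlapped almost wholly between legs, while 11 of 13 rats were higher in the loaded leg. The mean difference of Fbp2 was 0.49 (SE 0.13, adjusted p 0.169). The glycolytic enzyme genes Pgk1 (phosphoglycerate kinase, 0.21, SE 0.06) and Tpi1 (triosephosphate isomerase, 0.13, SE 0.06) were each higher in 11 of 13 rats. Stbd1, Fbp2, Pgk1 and Tpi1 were the 4 genes of the list of 25 at an unadjusted p under 0.05, which is 16% against 11.6% over all genes. The median difference of the list was 0.08, against -0.01 over all genes, and it was 0.02 with the level of slow-fibre genes in each leg as a covariate. Glycogen phosphorylase (Pygm) differed by -0.01 and hexokinase (Hk2) by 0.08.

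Khk, which phosphorylates fructose, was higher in the loaded leg in 13 of 13 rats. Its log2 level was 6.12, 6.32 and 6.53 (lowest, median and highest) in loaded legs, against 5.85, 6.15 and 6.45 in unloaded legs. The difference was small in every rat, between 0.02 and 0.35, with a mean of 0.18 (SE 0.05, adjusted p 0.160). The unloaded means of Khk (6.13) and of Ube3d (6.16) lay within the range of array medians, 6.07 to 6.20, so both sizes are uncertain. Another 13 genes had 1 sign in all 13 rats and are named after their values were seen. The higher ones were Cav3 (caveolin of muscle membranes, 0.24), Ube3d (0.22), Wdr25 (0.20), Cmbl (0.19), Mccc2 (a subunit of the leucine-degrading carboxylase, 0.19), Wsb2 (0.17), Gosr2 (0.10) and Fxr1 (an RNA-binding protein, 0.07). The lower ones were Clec2g (-0.27), Nmnat1 (an enzyme of NAD synthesis, -0.20), Ero1a (which forms disulphide bonds in the endoplasmic reticulum, -0.18), Gne (the first enzyme of sialic acid synthesis, -0.17) and Mrpl34 (-0.14). Their adjusted p-values from limma ran between 0.134 and 0.476.

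Fatty acid oxidation stood on the other side, with 3 of 22 measured genes higher and 19 lower in the loaded leg. The median was -0.11, against -0.01 over all genes, and 0 of the 22 had an unadjusted p under 0.05. Cpt2, which reforms acyl-CoA inside mitochondria, differed by -0.22 (SE 0.11), and the fatty acid transporter Cd36 by -0.45 (SE 0.24). Cpt2 was lower in 8 of 13 rats and Cd36 in 7, so rats did not share a direction. The means of Cpt2 and Cd36 were 0.17 and 0.43 in date code 3, against -0.46 and -0.88 in date code 4. With the slow-fibre covariate the median of the fatty acid list was -0.00. Of 25 genes of the respiratory chain and ATP synthase, 20 were higher and 5 lower, and the list median was 0.03. That median was 0.08 with the slow-fibre covariate. Only Ndufb8, a subunit of complex I, had an unadjusted p under 0.05 (0.20, SE 0.08).

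Genes of excitation and calcium release were higher in 15 of 17 measured cases, with a median of 0.06, against -0.01 over all genes. Kcnj11, the pore of the muscle potassium channel that closes with ATP, had log2 levels of 9.53, 10.52 and 10.87 (lowest, median and highest) in loaded legs, against 9.47, 10.05 and 10.79 in unloaded legs. It was higher in 12 of 13 rats, by 0.29 on average (SE 0.11, adjusted p 0.274). Its mean was -0.08 in date code 3 and 0.46 in date code 4. Cacna2d1 and Cacng1, auxiliary subunits of the calcium channel that triggers contraction, were higher by 0.13 (SE 0.04) and 0.17 (SE 0.06), in 12 and 10 rats. Asph, whose transcripts include junctin of the calcium store, went the other way in 11 of 13 rats (-0.14, SE 0.05). Jsrp1 (0.13, SE 0.05) was the fifth of the 17 with an unadjusted p under 0.05, a share of 29.4% against 11.6% over all genes.

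Myogenin was the gene of the denervation response with the clearest leg difference, and it was lower in the loaded leg. Its promoter is shown because its letters are those of muscle-specific control: both E-boxes, the CANNTG letters that myogenic factors bind, and the MEF2-type letters CTANNNNTA are in capitals. The sequence is the 250 bases before the start of Myog on the plus strand, chr13:48297226-48297475 of GRCr8, from RefSeq.
Myog: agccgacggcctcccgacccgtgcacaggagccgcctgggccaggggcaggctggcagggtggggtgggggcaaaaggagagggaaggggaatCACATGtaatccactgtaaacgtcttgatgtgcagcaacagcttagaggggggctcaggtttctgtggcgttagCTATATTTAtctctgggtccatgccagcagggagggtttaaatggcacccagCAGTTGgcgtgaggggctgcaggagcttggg
The E-boxes begin 157 and 31 bases before the start and the MEF2-type letters 83 bases before it. Both strands were searched. At least 1 CANNTG is in 65.5% and at least 2 are in 30.8% of the 33469 rat promoters of this length, and CTANNNNTA is in 6702 of them. These matches describe the letters of the window and are no measurement of binding.

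Myog had log2 levels of 6.53, 7.72 and 11.52 (lowest, median and highest) in loaded legs, against 7.13, 8.78 and 11.13 in unloaded legs. The groups overlapped widely because rats differed by several log2 units, and the leg difference showed within rats. The loaded leg was lower in 12 of 13 rats, with differences between -1.93 in rat 19 and -0.01 in rat 29, and only rat 37 was higher (0.60). The mean was -0.63 (SE 0.13, 95% interval -0.88 to -0.37), with an adjusted p of 0.110 from limma. Without rat 37 the mean was -0.73 and the adjusted p from limma 0.00696. Rat 37 was the only exception, so leaving it out favours a smaller p. Without rats 17, 19, 21, 23 and 27, in which neither leg correlated best with its partner, it was -0.45 (adjusted p 0.267). The mean was -0.32 in date code 3, which holds rat 37, and -0.76 in date code 4.

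**Figure D2:**
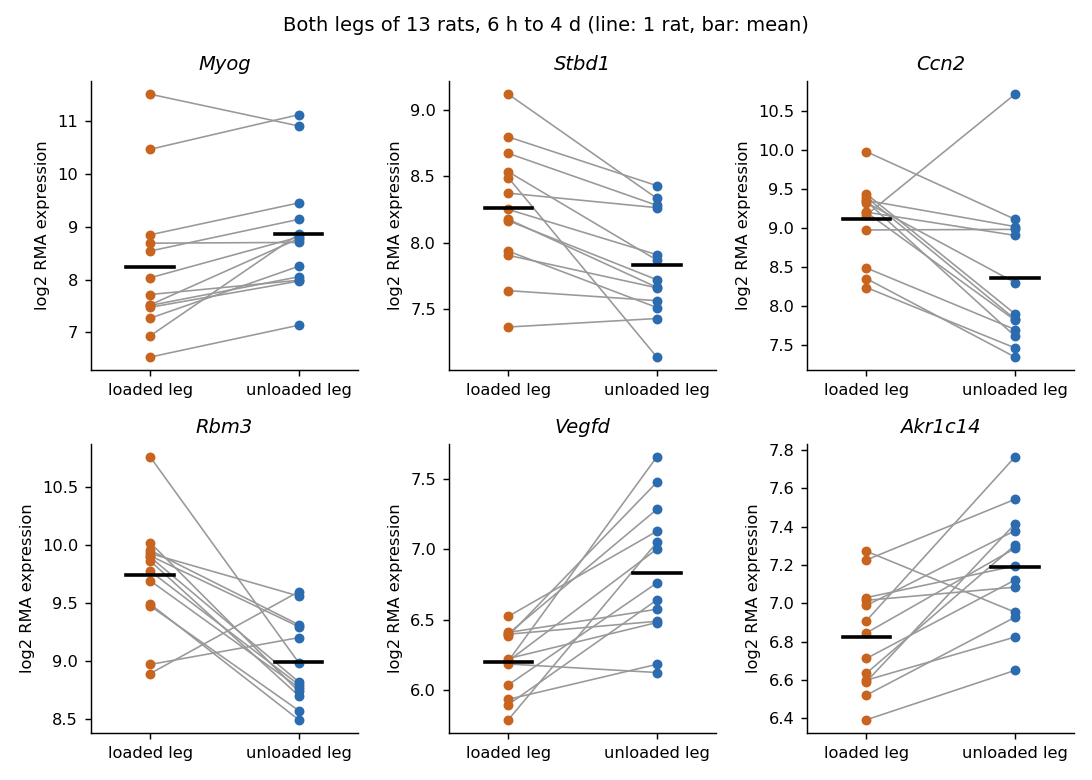
Log2 RMA expression (y axes) of Myog, Stbd1, Ccn2, Rbm3, Vegfd and Akr1c14 in the loaded leg (orange) and the unloaded leg (blue) of 13 rats, 6 h to 4 d. A line joins both legs of 1 rat and the black bars are means. The lines of Myog run upward to the unloaded leg in 12 rats, and the line of rat 21 crosses the others in Ccn2.

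Other genes of the denervation response were lower in most cases but with wide intervals. Of 13 measured, 2 were higher and 11 lower, and the list median was -0.11. Myog alone had an unadjusted p under 0.05. The acetylcholine receptor subunits differed by -0.17 for Chrna1 (95% interval -0.71 to 0.37), -0.09 for Chrnb1 and -0.44 for Chrnd (SE 0.27). Chrnd was lower in 9 of 13 rats, and its mean was 0.20 in date code 3 and -0.79 in date code 4. Ankrd1, a titin-binding protein of the denervated and stretched fibre, was at 0.50 (interval -0.13 to 1.12) and higher in 9 of 13 rats.

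The other myogenic factors had means on the other side of 0. Myod1, which commits cells to the muscle lineage, had log2 levels of 7.58, 8.19 and 11.21 (lowest, median and highest) in loaded legs, against 7.33, 7.97 and 11.24 in unloaded legs. It was higher in 10 of 13 rats, by 0.23 (SE 0.11, adjusted p 0.428), and its mean was -0.03 in date code 3 and 0.47 in date code 4. Myf6, the factor of mature fibres, differed by 0.12 (SE 0.09). Of 8 measured genes of satellite cells and myogenesis, 7 were higher and 1 lower, and the list median was 0.08. The markers of these cells, Cdh15 (0.10) and Megf10 (0.04), were each within 1.5 SE of 0.

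Ccn2, or connective tissue growth factor, a matricellular protein and an early target of stretch and of YAP, was among the higher genes with the largest differences. Its promoter is shown because it holds 3 copies of GGAATG, the letters that TEAD factors bind, in capitals here. The sequence is the 250 bases before the start of Ccn2, read on the minus strand, chr1:22624615-22624864 of GRCr8, from RefSeq.
Ccn2: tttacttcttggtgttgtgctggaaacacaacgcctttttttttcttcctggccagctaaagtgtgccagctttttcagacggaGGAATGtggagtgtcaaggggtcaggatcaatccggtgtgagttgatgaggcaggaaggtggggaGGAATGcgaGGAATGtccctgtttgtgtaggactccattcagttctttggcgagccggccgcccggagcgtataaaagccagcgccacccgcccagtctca
The copies begin 166, 101 and 92 bases before the start. On both strands, at least 1 copy is in 12.1% of the 33469 rat promoters and at least 3 are in 27 of them (0.0807%). Ccn1 and Cirbp had 1 copy each, and Rbm3, Stbd1 and Vegfd had 0 in this window.

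Ccn2 had log2 levels of 8.24, 9.20 and 9.98 (lowest, median and highest) in loaded legs, against 7.35, 7.90 and 10.72 in unloaded legs. Most loaded legs lay above most unloaded legs, and the single highest value was the unloaded leg of rat 21. The loaded leg was higher in 11 of 13 rats. Rat 13 differed by -0.01 and rat 21 by -1.55. The mean was 0.75 (SE 0.19, 95% interval 0.35 to 1.15) with an adjusted p of 0.164 from limma, 0.72 in date code 3 and 0.86 in date code 4. Without rat 21 it was 0.94 with an adjusted p of 0.0145, and without rats 21 and 27 it was 0.93 (adjusted p 0.0168). Rat 21 was the main exception, so leaving it out favours a smaller p.

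The stretch and Z-disc genes were divided. Of 19 measured, 10 were higher and 9 lower, and the list median was 0.00. Ccn2 alone had an unadjusted p under 0.05. Its relative Ccn1, which TEAD factors also control, was higher in 10 of 13 rats by 0.26 (95% interval -0.07 to 0.59). Csrp3, the muscle LIM protein of the Z-disc, differed by -0.23 (interval -1.04 to 0.59). The intervals of Csrp3 and Ankrd1 are wide enough to hold more than 1.5-fold in at least 1 direction, so no statement of equal levels can be made for them.

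Costamere and mechanosensor genes were lower in 11 of 15 measured cases, with a median of -0.08, while 5004 of all 9289 genes were lower. An unadjusted p under 0.05 was seen for 2 of them, a share of 13.3% near the 11.6% over all genes. Sorbs3 (vinexin, which binds vinculin at adhesions) had log2 levels of 8.28, 9.27 and 10.23 (lowest, median and highest) in loaded legs, against 8.70, 9.76 and 10.23 in unloaded legs. It was lower in 10 of 13 rats, by -0.38 on average (SE 0.12, adjusted p 0.213). Utrn, the dystrophin relative of the synapse and membrane, was lower in 11 of 13 rats (-0.20, SE 0.07). Dystrophin itself (Dmd) differed by -0.04 and talin (Tln1) by -0.11.

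Both cold-inducible RNA-binding proteins were higher in the loaded leg of the same 11 rats. Rbm3 had log2 levels of 8.89, 9.86 and 10.76 (lowest, median and highest) in loaded legs, against 8.49, 8.82 and 9.60 in unloaded legs. In 11 rats the loaded leg was higher by 0.37 to 1.78, and in rats 21 and 27 it was lower (-0.71 and -0.23). The mean of Rbm3 was 0.75 (SE 0.23, adjusted p 0.206), and 0.98 without rats 21 and 27 (adjusted p 0.0955). Cirbp was at -0.36 in rat 21, at -0.59 in rat 27 and between 0.17 and 0.70 in the others, with a mean of 0.26 (SE 0.11, adjusted p 0.370), and 0.40 without both rats (adjusted p 0.137). Muscle temperature of the legs was not among the data used here. Heat shock proteins and chaperones were lower in 15 of 21 measured cases, with a median of -0.03, and Hsp90aa1, an inducible chaperone, differed by -0.23 (SE 0.11, lower in 9 of 13 rats). Hspb7, a small heat shock protein of muscle, was at -0.45 (SE 0.18), with a mean of 0.01 in date code 3 and -0.82 in date code 4.

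Vegfd, a growth factor of lymphatic and blood vessels, was lower in the loaded leg. Its log2 level was 5.79, 6.21 and 6.52 (lowest, median and highest) in loaded legs, against 6.12, 6.76 and 7.66 in unloaded legs. Loaded legs covered a narrow range at the low end, near the array medians, and unloaded legs spread upward. The loaded leg was lower in 12 of 13 rats, with rat 19 at 0.06, and the mean was -0.64 (SE 0.15, 95% interval -0.94 to -0.34, adjusted p 0.134). Of 6 measured endothelial markers, 2 were higher and 4 lower, and 2 had an unadjusted p under 0.05 (33.3%, against 11.6% over all genes). Tek and Tie1, the angiopoietin receptor and its relative, were at -0.19 (SE 0.07, lower in 12 rats) and -0.17 (SE 0.07, lower in 10 rats).

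Akr1c14, a hydroxysteroid reductase, had log2 levels of 6.39, 6.85 and 7.27 (lowest, median and highest) in loaded legs, against 6.65, 7.20 and 7.76 in unloaded legs. It was lower in 12 of 13 rats, with rat 19 at 0.32 as the exception, and the mean was -0.36 (SE 0.08, adjusted p 0.134), with -0.29 in date code 3 and -0.27 in date code 4. Aox1, an aldehyde oxidase, was lower in 11 of 13 rats (-0.42, SE 0.13), and Mettl7a, a methyltransferase-like protein of lipid droplets, in 12 (-0.52, SE 0.14). The loaded leg was the higher one in 1 rat for Mettl7a and in 2 for Aox1, rat 21 among them (0.47). The lowest loaded leg of Aox1, 5.47, lay below the lowest array median of 6.07, so its size is uncertain. Abhd4, a lipase of N-acyl phospholipids, was lower in 12 of 13 rats (-0.33, SE 0.07, adjusted p 0.134), and by -0.30 without rats 21 and 27 (adjusted p 0.0303), with log2 levels of 9.74, 9.96 and 11.15 in loaded legs, against 9.78, 10.49 and 11.38 in unloaded legs (lowest, median and highest).

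Fam13a, linked to fat and insulin traits in people, had the largest mean difference among the lower genes with 1 sign in at least 11 of 13 rats. Its log2 level was 6.43, 7.19 and 9.20 (lowest, median and highest) in loaded legs, against 7.17, 8.60 and 9.71 in unloaded legs. The mean was -0.76 (SE 0.20, adjusted p 0.169). It was 0.05 in the 4 rats of date code 3 and -1.18 in the 6 rats of date code 4, and the difference between the codes was not tested. The antioxidant genes catalase (Cat, -0.24, SE 0.08), glutathione peroxidase 3 (Gpx3, -0.28, SE 0.08) and glutathione reductase (Gsr, -0.29, SE 0.10) were lower in 12, 10 and 10 of 13 rats. They were the 3 of 22 measured oxidative stress genes with an unadjusted p under 0.05, a share of 13.6% near the 11.6% over all genes. The median of that list was -0.05, with 7 genes higher and 15 lower, and 0.01 with the slow-fibre covariate.

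The remaining genes with the smallest unadjusted p had small differences with narrow intervals and are described singly. Nedd1, which anchors the microtubule-nucleating complex at centrosomes, had log2 levels of 7.15, 7.56 and 7.78 (lowest, median and highest) in loaded legs, against 7.26, 7.81 and 8.17 in unloaded legs. It was lower in all rats but rat 21 (0.04), by -0.27 on average (SE 0.05, adjusted p 0.110). Atf6b, a membrane-bound factor of the unfolded protein response, was likewise lower in all rats but rat 21 (0.03), by -0.21 (SE 0.04, adjusted p 0.110). Bace2, an aspartyl protease, was lower in all rats but rat 27 (0.14), by -0.26 (SE 0.05, adjusted p 0.110). Loaded legs of Bace2 ran from 6.05 to 6.49, near the array medians of 6.07 to 6.20, so its size is uncertain. Phf21a, a reader of unmethylated histone tails, and Senp7, which trims SUMO chains, were at -0.23 and -0.29, each lower in 11 of 13 rats. Without rats 21 and 27, which were the exceptions of Senp7, the difference of Senp7 was -0.37 (adjusted p 0.00939). The same omission gave -0.27 for Nedd1 (adjusted p 0.0337), -0.23 for Atf6b (0.033) and -0.28 for Bace2 (0.0303), all from limma. Rat 21, rat 27 or both were the exceptions of each of these genes, so the omission favours smaller p-values. Phf3, a transcription elongation regulator, was at -0.29 (SE 0.07) with a mean of -0.10 in date code 3 and -0.39 in date code 4.

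Higher genes with similarly small unadjusted p were Cdc42ep3, an effector of Cdc42 (0.27, SE 0.06), Mmgt1, which belongs to a membrane protein insertase (0.18, SE 0.04), Egln2, an oxygen sensor that hydroxylates HIF (0.21, SE 0.05), and Msra, which repairs oxidised methionine (0.28, SE 0.07). Mmgt1 was higher in 12 rats and the other 3 in 11 of 13. Bloc1s1, of lysosome-related sorting (0.21, SE 0.05), was higher in 11 rats as well. The adjusted p-values of these genes from limma ran between 0.134 and 0.148. Klhl25 (0.44) and Optc (0.28) belonged to this set by p, but a group mean of each lay below the lowest array median, so signal over background is not shown and the size is uncertain. Gpr157, an orphan receptor, and Nrep, the neuronal regeneration related protein, were higher by 0.55 (SE 0.17) and 0.49 (SE 0.16) in 11 of 13 rats each, with 0.07 and 0.22 in date code 3 and 0.72 for both in date code 4.

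**Figure D3:**
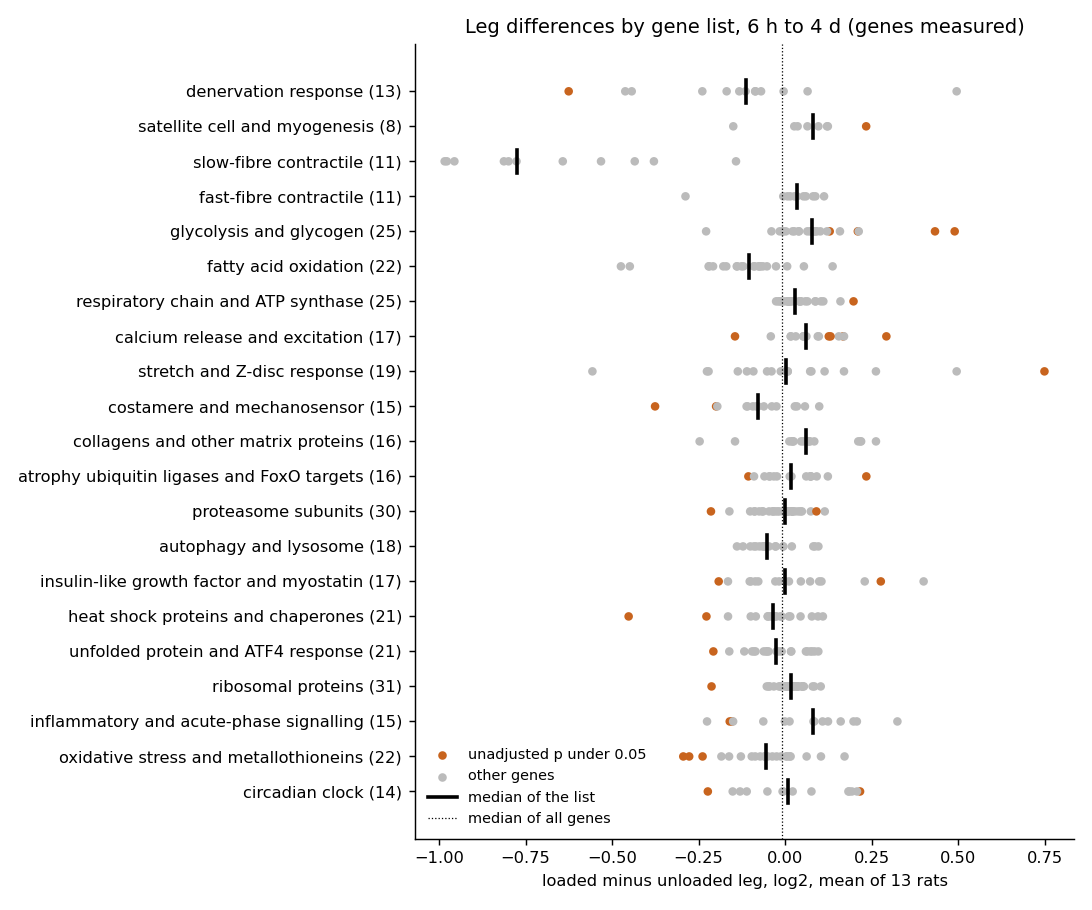
Mean leg difference over 13 rats (loaded minus unloaded, log2, x axis) of each measured gene in 21 gene lists (rows, number of genes measured in brackets). Orange points have an unadjusted p under 0.05, black bars are list medians and the dotted line is the median of all 9289 genes. The slow-fibre list lies farthest from 0, at a median of -0.78, with 0 orange points.

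The ubiquitin ligases of atrophy had small mean leg differences, with intervals of different width. Fbxo32 (atrogin-1) had log2 levels of 12.62, 13.02 and 13.42 (lowest, median and highest) in loaded legs, against 12.60, 12.97 and 13.52 in unloaded legs. Its mean difference was -0.04 (95% interval -0.18 to 0.10), and that of Trim63 (MuRF1) was 0.07 (interval -0.19 to 0.34). Single rats ran from -0.70 to 0.88 for Trim63, so equal levels are not shown for it. Neither gene had a lower level in more than 9 of 13 loaded legs. Of 16 measured ligases and FoxO targets, 9 were higher and 7 lower, and the list median was 0.02. Foxo1, the transcription factor upstream of them, was at 0.23 (SE 0.11, higher in 9 rats), and Bnip3, of mitochondrial removal, at -0.11 (SE 0.05, lower in 12 rats). Of 30 proteasome subunits 15 were higher and 15 lower. Psmd8 at -0.21 (SE 0.09) and Psmb6 at 0.09 (SE 0.04) were the 2 with an unadjusted p under 0.05 (6.67%, against 11.6% over all genes). Of 18 autophagy and lysosome genes 4 were higher and 14 lower, and the list median was -0.05, with 0 genes at an unadjusted p under 0.05.

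Growth signalling was divided, with 9 of 17 measured genes higher and 8 lower and a median of 0.00. Igf1r, which binds insulin-like growth factor 1 at the membrane, had log2 levels of 7.80, 8.04 and 8.49 (lowest, median and highest) in loaded legs, against 7.76, 8.30 and 8.56 in unloaded legs. It was lower in 10 of 13 rats, by -0.19 (SE 0.06, adjusted p 0.194), and its ligand Igf1 differed by -0.08. Smad3, which carries the signal of TGF-β and myostatin, was higher in 11 of 13 rats (0.28, SE 0.10). Myostatin (Mstn), the inhibitor of muscle growth, was at 0.23 with an interval of -0.44 to 0.90, and rats differed in its direction.

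Matrix genes were higher in 14 of 16 measured cases, but with small differences, a median of 0.06 and 0 genes at an unadjusted p under 0.05. Col1a1 was at 0.21 (95% interval -0.18 to 0.60), Lox, which cross-links collagen, at 0.26 (SE 0.20), and Fbln2 (fibulin-2) at 0.22 (SE 0.11). The decorating proteoglycan Lum was at -0.25 (SE 0.17). Unfolded protein genes other than Atf6b had no unadjusted p under 0.05, and 8 of the 21 were higher and 13 lower. Ribosomal protein genes were higher in 22 of 31 cases with a median of 0.02, and Rplp1 alone had an unadjusted p under 0.05 (-0.21, SE 0.07), a value left uncertain by near-identical gene copies.

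Inflammatory and acute-phase genes were higher in 9 of 15 cases, with a median of 0.08. Nfkbia, the inhibitor of NF-κB and also its target, and Icam1, an adhesion molecule, were lower (-0.15, SE 0.07, and -0.16, SE 0.08). Lcn2, an acute-phase protein, was at 0.32 (SE 0.16). In the clock list, Dbp, an output gene of the circadian clock, was lower in 12 of 13 rats, with log2 levels of 9.78, 10.58 and 11.35 (lowest, median and highest) in loaded legs, against 9.44, 10.87 and 11.67 in unloaded legs. Its mean difference was -0.22 (SE 0.07, adjusted p 0.217), while Bhlhe40, a repressor of the clock, was at 0.22 (SE 0.09, higher in 7 rats) and the core factor Clock at -0.01. The clock list was even, at 7 genes higher and 7 lower, and the cause of the Dbp difference was not tested.

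Defining markers of the skeletal muscle fibre were high in every leg, with a mean log2 level over 8 genes of 13.51 to 13.65 in loaded legs and 13.43 to 13.65 in unloaded legs. Markers of several other cell types were lower in the loaded leg on balance, as were 5004 of all 9289 genes. All 5 measured mast cell markers were lower, with Mcpt1l1, a mast cell protease, at -0.43 (SE 0.13) and Cpa3 at -0.30 (SE 0.13), as were all 7 of smooth muscle and pericytes (median -0.20), all 5 of Schwann cells (median -0.21), all 3 of red cells (median -0.72) and 6 of 7 of adipocytes (median -0.15). The mean log2 level over the mast cell markers ran between 6.40 and 7.66 in loaded legs and between 6.53 and 7.92 in unloaded legs. For the red cell genes, which read blood left in the sample, it ran between 6.96 and 10.15 in loaded legs and between 7.90 and 11.10 in unloaded legs. The ranges were 7.68 to 8.60 in loaded and 7.88 to 8.82 in unloaded legs for smooth muscle, and 6.80 to 7.61 in loaded and 6.87 to 8.21 in unloaded legs for Schwann cells. Every one of these ranges overlapped between the legs. An unadjusted p under 0.05 was seen for 2 mast cell, 1 smooth muscle, 1 red cell, 0 Schwann cell and 0 adipocyte markers. The share over all genes was 11.6%. The red cell genes varied widely, and Hbb and Hbb-b1 were each lower in 9 of 13 rats, with SDs between rats of 1.47 and 1.70. Only 2 of 6 listed neutrophil markers and 2 of 9 lymphocyte markers were measured. They were lower too, none at an unadjusted p under 0.05. Both neutrophil markers lay below the lowest array median on average, so signal over background is not shown for them. Macrophage markers were even, at 6 higher and 6 lower of 12 with a median of -0.00, and so were fibroblast markers, at 3 and 3 of 6. All 4 tendon markers were higher (median 0.10), with 0 at an unadjusted p under 0.05 and a median SD between rats of 0.97. In whole muscle, fewer cells of a type and less RNA per cell cannot be told apart. The part of these cells in the differences of other genes, such as Vegfd or Ccn2, was not tested.

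The widest spread between rats was in slow-fibre contractile genes, which had no shared direction. The SD of the leg difference over 13 rats had a median of 0.237 over all genes, and was 2.96 for Tnnc1, the slow troponin C. The other 7 genes with the largest SD were Tnnt1, Tnni1, Lgi1, Myh7, Ankrd2, Myoz2 and Ldhb. Most of them encode slow or cardiac-type sarcomere proteins, and Ldhb is the lactate dehydrogenase subunit of oxidative fibres. Myh7, the slow myosin heavy chain, had log2 levels of 6.64, 10.57 and 13.12 (lowest, median and highest) in loaded legs, against 6.30, 12.55 and 13.07 in unloaded legs. Its mean difference was -0.98 (95% interval -2.25 to 0.29, adjusted p 0.568), and 5 of 13 rats were higher in the loaded leg. Myh4, the fastest myosin heavy chain, differed by 0.01 (interval -0.33 to 0.36), and the 11 fast-fibre genes had a median of 0.03, with 9 higher and 2 lower.

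Over the 11 measured slow-fibre genes, the mean leg difference per rat ran from -3.96 in rat 17 to 3.47 in rat 37. It was -2.60 in rat 21, -1.97 in rat 19, -1.74 in rat 11, -1.72 in rat 13 and -1.45 in both rat 27 and rat 33. It was -0.06 in rat 31, 0.27 in rat 15, 0.29 in rat 35, 0.37 in rat 29 and 1.74 in rat 23. The loaded leg thus had the lower list mean in 8 rats and the higher in 5, with an SD of 1.96 around a mean of -0.68. The level itself ranged between 6.77 and 11.67 in loaded legs and between 6.48 and 11.65 in unloaded legs, so both legs of the window covered nearly the same range. All 11 genes were lower on average (median -0.78) and 0 had an unadjusted p under 0.05.

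**Figure D4:**
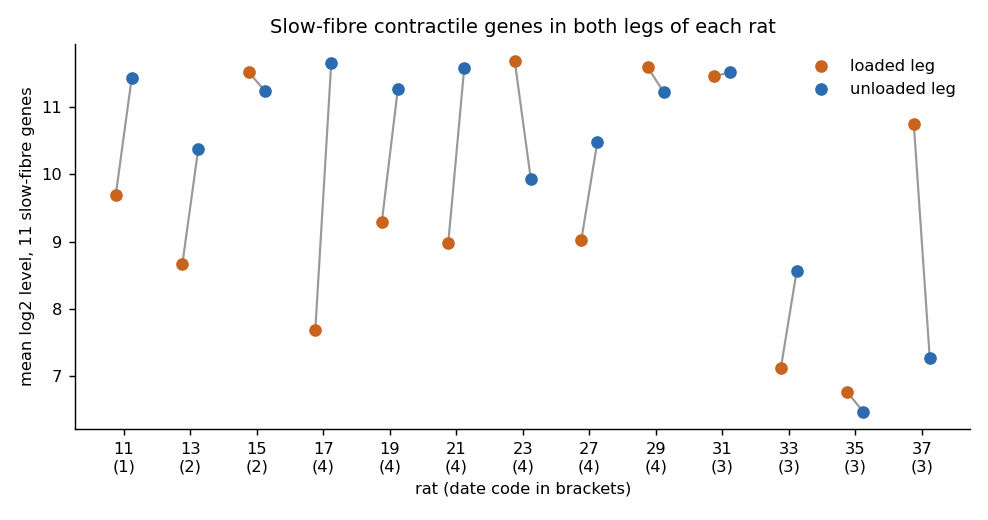
Mean log2 level of 11 slow-fibre contractile genes (y axis) in the loaded leg (orange, left point) and the unloaded leg (blue, right point) of each rat of 6 h to 4 d, with the coded date group of the labels in brackets. A line joins both legs of 1 rat. The line rises to the unloaded leg in 8 rats and descends to it in 5, and rats 17 and 37 have the longest lines, in opposite directions.

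The same genes led the first principal component of the leg differences, which held 33.6% of their variance, against 13.0% for the next component. Of its 20 strongest genes at the positive end, 10 were from the slow-fibre list. At the negative end stood Ostn (osteocrin, a peptide of fast muscle), Mstn and Mss51. With the slow-fibre level of each leg as a covariate, the differences were 0.44 for Stbd1, -0.53 for Myog, 0.84 for Ccn2, 0.89 for Rbm3, -0.64 for Vegfd and -0.37 for Akr1c14, each within 1.5 times the value without it. Others came closer to 0, at 0.18 for Kcnj11, 0.08 for Jsrp1, 0.07 for Tpi1, 0.38 for Gpr157, -0.26 for Hspb7 and -0.13 for Chrnd. The median of the stretch and Z-disc list was 0.12 with the covariate, against 0.00 without it. Where in the muscle a sample was cut was not among the labels used here, and its part in the slow-fibre differences was not tested.

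The leg differences of 6 h to 4 d were then set against those of the 4 rats of 5 to 8 d and the 6 rats of 9 to 14 d. Of 9289 genes, 0 passed an adjusted p of 0.05 for a difference between the windows (percent called 0), and 850 (9.15%) had p under 0.05 before adjustment. An adjusted p of 0.123, the lowest, was shared by Adck2, Ralgps2, Ube3d, Tecr and Adi1. With array quality weights all 5 passed, with adjusted p-values from limma between 0.00323 for Adck2 and 0.0279 for Ube3d. Ube3d, a ubiquitin ligase, had a leg difference of 0.22 at 6 h to 4 d, with 13 of 13 rats higher, -0.24 at 5 to 8 d, with 0 of 4 higher, and -0.13 at 9 to 14 d, with 2 of 6 higher. The early leg difference of Ube3d exceeded the mean of both later windows by 0.41 (SE 0.09, adjusted p 0.123). Tecr, an enzyme of very long chain fatty acid synthesis, was at 0.01, 0.42 and 0.26 in the 3 windows in order of time, and Adck2, a kinase-like protein of mitochondria, at -0.12, 0.34 and 0.20. Adi1, of the methionine salvage pathway, was at 0.18, -0.47 and -0.31. For Ralgps2 a group mean lay below the lowest array median, so its size is uncertain. The unloaded mean of Ube3d at 6 h to 4 d, 6.16, was also near the array medians.

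Ccn2 was higher in the loaded leg in every window, by 0.75 at 6 h to 4 d, 0.65 at 5 to 8 d and 1.32 at 9 to 14 d, and the early minus later difference was -0.24 (SE 0.30, adjusted p 0.838). Rbm3 was at 0.75, 1.39 and 1.32, with an early minus later difference of -0.60 (SE 0.35, adjusted p 0.613). Myog was at -0.63, -0.09 and -0.25, with -0.45 (SE 0.19, adjusted p 0.472) for the early window against the later ones. None of these 3 genes was shown to differ between windows. Stbd1 was at 0.43, 0.04 and 0.12, with an early minus later difference of 0.35 (SE 0.12, adjusted p 0.365), and Fbp2 at 0.49, -0.16 and -0.21, with 0.68 (SE 0.20, adjusted p 0.261). Fbln2 was at 0.22, 0.76 and 1.00, with -0.66 (SE 0.16, adjusted p 0.190). Pmepa1, which dampens TGF-β signalling and is its target, was at 0.25, 0.18 and 1.53. Its early minus later difference of -0.61 (SE 0.20) had an adjusted p of 0.336, and the highest values came from the 9 to 14 d window.

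**Figure D5:**
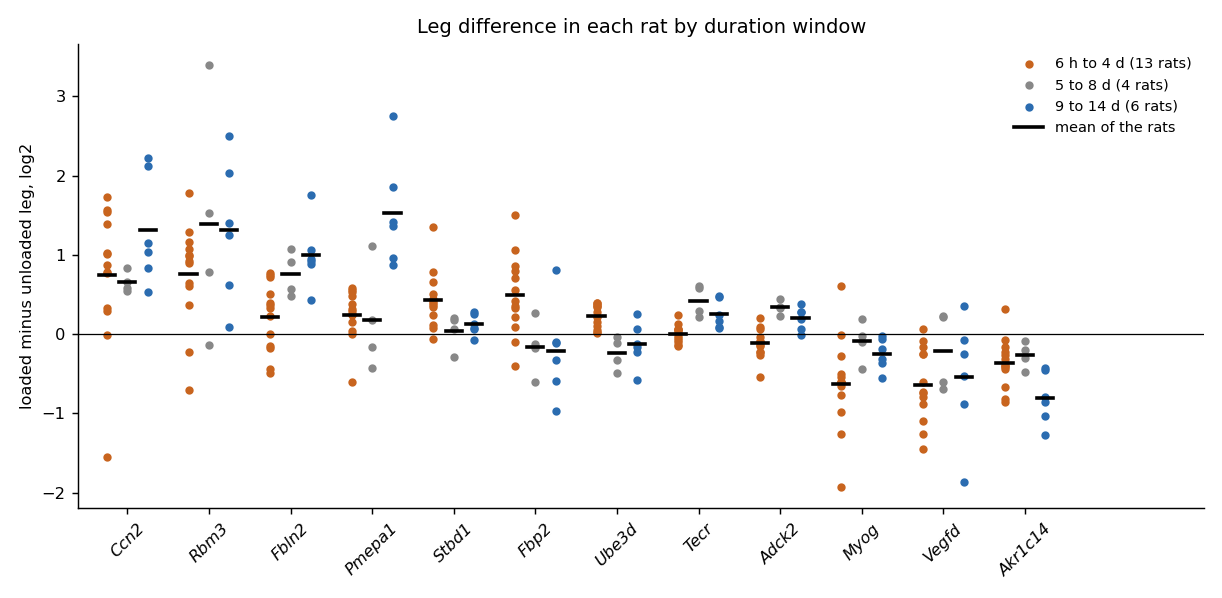
Loaded minus unloaded leg (log2, y axis) of 12 genes in each rat, by duration window: 6 h to 4 d (orange, 13 rats), 5 to 8 d (grey, 4 rats) and 9 to 14 d (blue, 6 rats), with black bars for the means. All 13 early rats of Ube3d lie above 0 and all 6 rats of Pmepa1 at 9 to 14 d lie above the early rats.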

How the data were processed

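RNA of 46 gastrocnemius samples was measured on single-colour expression arrays. The deposited table holds log2 values of 26208 probe sets, which the authors made with RMA (version not stated), per the submitters' processing notes. RMA quantile-normalises, so a shift shared by most transcripts would be partly removed. Array medians ran between 6.07 and 6.20, and the number of arrays limits the precision.

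Probe sets above the median of their own array on 4 or more arrays were used (14834). Genes came from the platform annotation, which gives 1 gene to 15088 probe sets, several to 323 and none to 10797. Symbols were updated through gene IDs, of which 15058 matched RefSeq. Each of the 9289 genes is represented by its brightest used probe set.

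Leg differences were fitted with limma 3.58.1 (lmFit and eBayes, two-sided, R 4.3.3) over the 46 arrays, with a term for each rat and a loading term for each window. P-values were adjusted by Benjamini-Hochberg over all genes. The deviations of paired legs correlated above 0.1 in 11 of 13 rats, and the legs were each other's best match in 3. The pairing comes from the label numbers. The code was tested on simulated data.

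The text names the 10 higher and 10 lower genes with the smallest unadjusted p, the 5 higher and 5 lower with the largest difference among those with 1 sign in at least 11 of 13 rats, the 8 with the largest SD, the 5 with the smallest p against later windows, up to 4 of each gene list by p, and a fixed panel. Other members of a list are named only to show its range. The members, lists and panel were chosen with earlier results of these data known. Promoter letters are RefSeq, build GRCr8. Alternatives covered normalisation, filter, block, array weights, probe sets, a slow-fibre covariate, date codes and omitted rats.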

Additional observations from a re-analysis of the deposited data

How the results depend on the processing

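Most processing choices left 0 genes past an adjusted p of 0.05 between the legs at 6 h to 4 d. These were cyclic loess, no filter, the filter at 23 arrays, all kept probe sets, the 26 arrays alone, legs 22 and 28 averaged, each of date codes 3 and 4 alone, and the fit with no replicate block (0 genes, 263 at an unadjusted p under 0.05, against 1075 with it). Array quality weights gave 9 genes (1 higher, 8 lower) and a random replicate block gave 12 (2 higher, 10 lower, correlation between legs 0.511). The slow-fibre covariate gave 1, Phf21a. Leaving out 1 rat gave 0 to 14 genes: 14 without rat 21, 2 without rat 27 (Stbd1 and Bace2), 1 without rat 23 (Stbd1) and 1 without rat 37 (Myog). Without rats 21 and 27 the count was 19 (4 higher, 15 lower). It was 2 without rats 17, 19, 21, 23 and 27 (Chst12 and Aox3) and 2 without rats 35 and 37 (Kcnh2 and Myog). Against the later windows, array quality weights gave 131 genes (84 higher, 47 lower), Adck2, Ralgps2, Ube3d, Tecr and Adi1 among them, and the slow-fibre covariate 1 (Pla2g7), and the other alternatives run for it gave 0. Genes with 1 sign numbered 14 in all 13 rats and 527 in at least 11, against 119 in at least 12. The median SD between rats was 0.237, and with cyclic loess, added after seeing the data, 0.229, and 0.2306 to 0.2435 with 1 rat left out. The causes were not tested. Of 126 named genes, 94 kept 1 sign in all alternatives (up to 27), and 13 passed in at least 1. Fam13a changed sign within date code 3. Signal over background was not measured, so dim genes have uncertain sizes.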
